A study of Mus musculus with 29 samples.

Results

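The genes described are 10 type I interferon-stimulated genes (Mx1, Mx2, Isg15, Ifit1, Ifit3, Oasl2, Rsad2, Cmpk2, Irf7 and Usp18), taken by symbol from a count table of 24421 genes. All 10 symbols had 1 row each, and all 10 passed edgeR's filter on low counts in every comparison below. The table holds 29 bulk RNA-seq libraries, 1 per mouse, from a peritoneal dissemination model in which YTN16 cells, a mouse gastric cancer cell line, were injected intraperitoneally into immunocompetent female mice of strain C57BL/6J. The mice were 5 to 6 weeks old when the experiment was set up. All mice shared the single cell line as a model of the disease, and no genotype is given beyond the strain. On day 21 there were 5 untreated mice and 5 mice treated with both anti-PD1 and anti-CTLA4 (dual ICI). On day 35 there were 5 untreated, 5 anti-PD1, 4 anti-CTLA4 and 5 dual ICI mice, and the latter are given as 2 uncured mice (mice 1 and 5) and 3 cured mice (mice 2, 3 and 4). The labels give treatment, day and number but no outcome, and the outcome rests on reading the label's number as the mouse number used by the study.

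Type I interferons bind the receptor made of Ifnar1 and Ifnar2, whose kinases Jak1 and Tyk2 phosphorylate transcription factors such as Stat2. Stat2 acts with Irf9 in a complex that binds the interferon-stimulated response element in the promoters of interferon-stimulated genes. The products block viral replication, and in tumors the same genes are widely read as a trace of interferon reaching tumor, stromal or immune cells.

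The promoters were searched for an exact core of that element, where a window was available. RefSeq promoter windows on GRCm38.p6 (250 bases before to 50 bases after the start) were matched for 7 of the 10 genes, and Mx1, Mx2 and Usp18 had no entry. The core of the element was searched as GAAA, any 2 bases and GAAA again, and for the other strand as TTTC, any 2 bases and TTTC, with overlapping matches allowed. It was in 4 of the 7 windows, against 1131 of all 32851 windows (3.44%). Among 31 other interferon-stimulated genes with a window it was in 12. The stretch from 170 to 21 bases before the start is printed 5′ to 3′ on each gene's own strand, in lower case with every match in capitals, for the 4 genes with a match and the 3 without.
Isg15 (chr4:156200839-156200988, minus strand): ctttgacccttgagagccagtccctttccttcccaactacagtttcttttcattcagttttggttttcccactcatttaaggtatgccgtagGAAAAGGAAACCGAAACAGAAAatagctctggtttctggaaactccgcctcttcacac
Ifit1 (chr19:34640719-34640868, plus strand): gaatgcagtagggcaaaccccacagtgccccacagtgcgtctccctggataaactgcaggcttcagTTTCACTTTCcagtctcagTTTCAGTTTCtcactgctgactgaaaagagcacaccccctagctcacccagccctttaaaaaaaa
Ifit3 (chr19:34583359-34583508, plus strand): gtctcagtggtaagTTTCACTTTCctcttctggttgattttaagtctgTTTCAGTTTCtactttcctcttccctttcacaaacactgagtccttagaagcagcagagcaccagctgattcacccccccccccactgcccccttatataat
Rsad2 (chr12:26456473-26456622, minus strand): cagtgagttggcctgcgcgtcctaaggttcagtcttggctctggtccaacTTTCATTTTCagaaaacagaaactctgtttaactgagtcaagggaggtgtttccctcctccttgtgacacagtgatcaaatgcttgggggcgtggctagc
Oasl2 (chr5:114896764-114896913, plus strand): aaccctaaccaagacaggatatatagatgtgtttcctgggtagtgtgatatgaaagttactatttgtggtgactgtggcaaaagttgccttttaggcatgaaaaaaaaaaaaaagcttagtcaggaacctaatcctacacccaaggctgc
Cmpk2 (chr12:26469045-26469194, plus strand): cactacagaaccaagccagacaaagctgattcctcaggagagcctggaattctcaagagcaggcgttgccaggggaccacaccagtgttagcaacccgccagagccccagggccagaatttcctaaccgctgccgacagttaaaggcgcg
Irf7 (chr7:141266445-141266594, minus strand): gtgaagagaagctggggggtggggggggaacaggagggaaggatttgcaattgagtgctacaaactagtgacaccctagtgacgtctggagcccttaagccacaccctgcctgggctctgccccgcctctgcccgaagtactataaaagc
Isg15 held 3 overlapping matches, which begin 78, 72 and 66 bases before the start. Ifit1 and Ifit3 held 2 each, on the other strand, and Rsad2 held 1, at 120 bases before the start. Oasl2, Cmpk2 and Irf7 held none in the window, which says only that these letters are not there.

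The genes lie on 7 chromosomes, in GENCODE vM21 coordinates on GRCm38 (mm10). Isg15, encoding the ubiquitin-like modifier ISG15, is at chr4:156199424-156200818. Oasl2, of the oligoadenylate synthetase family, is at chr5:114896936-114912234. Usp18, encoding the protease that removes ISG15 and dampens receptor signalling, is at chr6:121245906-121270917. Irf7, encoding the transcription factor that amplifies interferon production, is at chr7:141262706-141266481. Rsad2, which encodes viperin, and Cmpk2, a mitochondrial nucleotide kinase gene, stand head to head on chromosome 12 (chr12:26442746-26456452 and chr12:26469204-26479837) with 5′ ends 12752 bases apart. Mx1 and Mx2, of the dynamin-like antiviral GTPases, are at chr16:97447035-97462907 and chr16:97535308-97560900. RefSeq classes both as transcribed pseudogenes in the reference strain, so their counts are transcript levels and say nothing of protein. Ifit3 and Ifit1, encoding RNA-binding tetratricopeptide proteins, are at chr19:34583531-34588731 and chr19:34640871-34650009. Counts of Ifit3 are uncertain because reads can be shared with its close copy Ifit3b next to it (chr19:34607970-34613401). Those of Irf7 and Usp18 are uncertain because the genes overlap Phrf1 and Gm44148 on the opposite strand and the sources do not say whether reads were counted by strand.

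Total counts per library were between 25989217 and 31219650, and the 10 genes had between 26 counts (Mx2) and 3522 counts (Oasl2) in a library. Levels are given as CPM, a gene's count relative to the total of its library, on library sizes scaled with edgeR's TMM method. Because all libraries were of bulk tissue, fewer cells of a type and less RNA per cell cannot be told apart. All libraries are labelled as tumor tissue. The study's methods, however, state that RNA came from stripped peritoneum, whether or not it bore tumor nodules. In the 3 cured mice, whose dissemination the study describes as eradicated, the summed CPM of 20 gastric epithelium markers was between 14.2 and 54.7, against 3026 to 3520 in the 2 uncured mice. In the cured mice Gkn1, Gkn2, Tff1 and Muc5ac were at 0, and 14 of the 20 markers were above 3 counts in at least 1 library. Skeletal muscle genes took between 25.1% and 27.0% of the cured libraries. Anti-PD1 mouse 5 stood with the cured mice in both (39.2 CPM and 24.9%), and untreated mouse 2 of day 35 was the next highest in muscle at day 35 (23.4%, with 930 CPM of epithelium markers). The study describes a cured animal in the anti-PD1 group without a number that the labels could be matched to, so anti-PD1 mouse 5 was kept in its group with its outcome unknown.

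Per kilobase of exon, mean CPM over the 29 libraries was highest for Ifit3 (10.1), Irf7 (9.34), Isg15 (9.17) and Oasl2 (8.82), followed by Ifit1 (4.37), Usp18 (2.87), Cmpk2 (2.28), Mx1 (2.17) and Rsad2 (1.90), and lowest for Mx2 (0.684). Mx1 varied most between libraries, with a highest CPM 8.55 times its lowest, and Irf7 least, with 3.18 times. Ranked by mean CPM over the 7 groups, dual ICI mice of day 21 were highest for 5 genes (Mx1, Ifit1, Oasl2, Rsad2 and Usp18), uncured mice for 3 (Mx2, Isg15 and Irf7) and cured mice for 2 (Ifit3 and Cmpk2). The lowest group was anti-CTLA4 for 5 genes, anti-PD1 for 2, cured mice for 2 (Oasl2 and Irf7) and untreated mice of day 35 for 1 (Cmpk2). Of the 60 pairs of neighbours in these orders, 4 differed by more than the larger SD of the pair. The ranges were apart in 1 of the 60, which was Mx1 in untreated mice of day 21 (9.96 ± 2.85 CPM (SD, n = 5)) above anti-CTLA4 mice (5.47 ± 1.10 CPM (SD, n = 4)). Most steps in the orders were thus within the spread between mice.

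**Figure D1:**
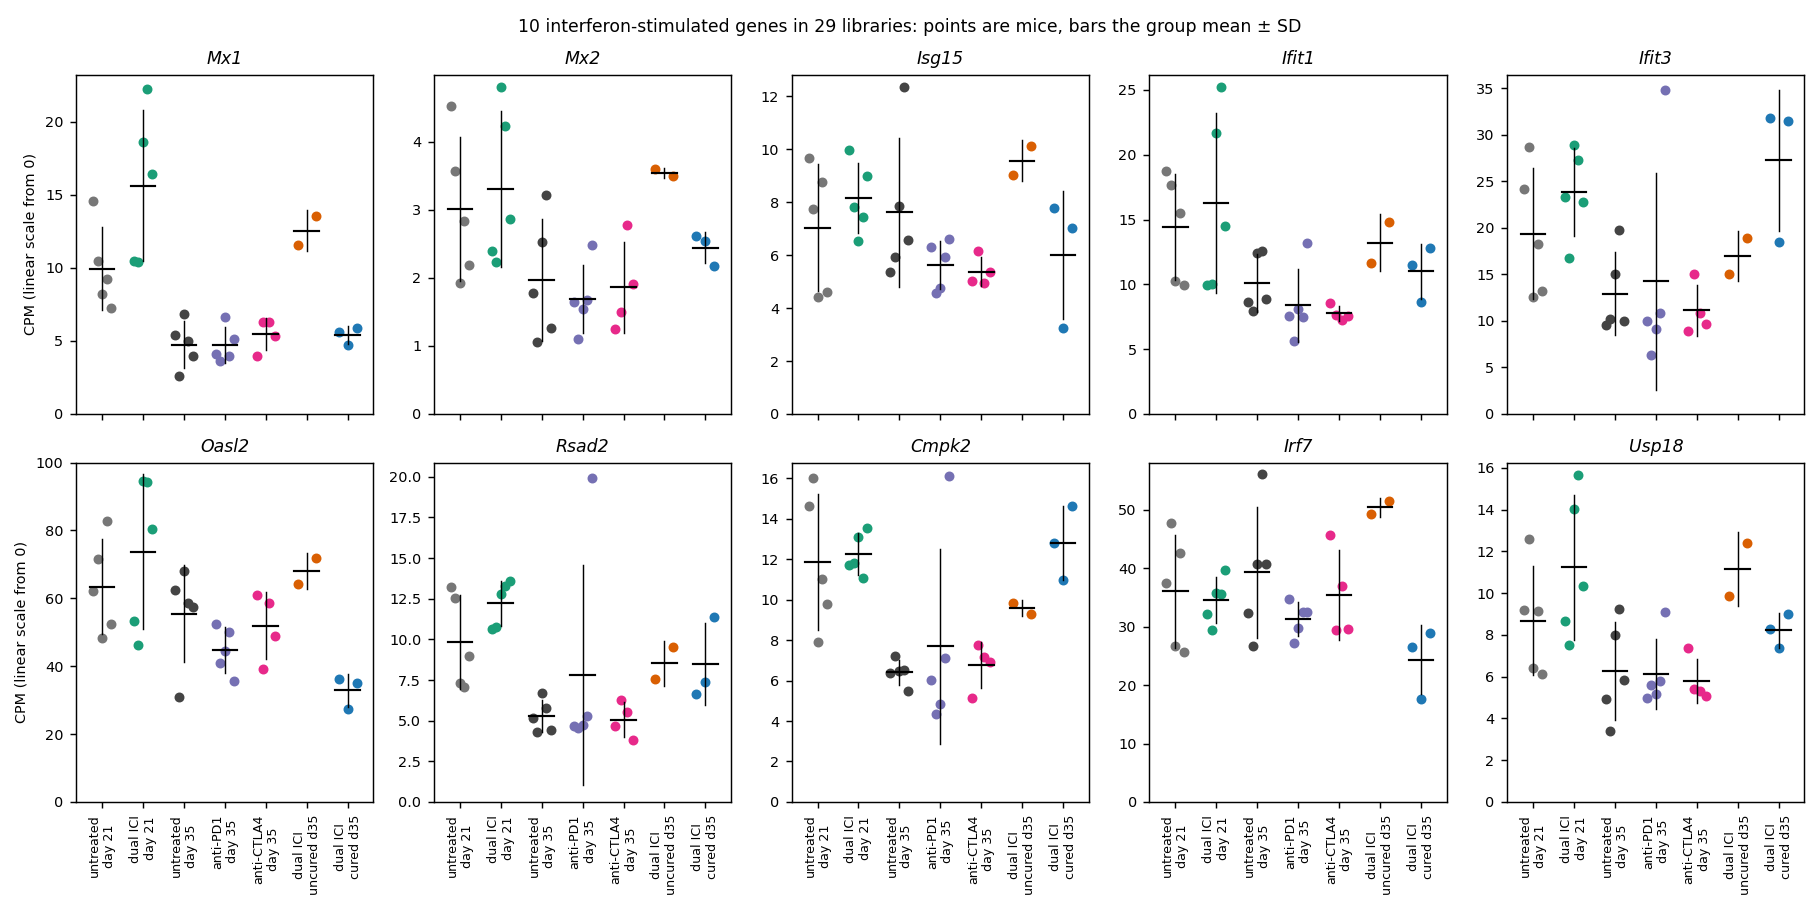
CPM of each of the 10 genes (y axis, linear from 0) in every mouse of the 7 groups (x axis), with 1 point per mouse and bars for the mean ± SD. Mx1, Rsad2 and Cmpk2 are low in the untreated and monotherapy mice of day 35, save Rsad2 and Cmpk2 in anti-PD1 mouse 5, and Oasl2 and Irf7 are lowest on average in the 3 cured mice.

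Dual ICI was first compared with no treatment on day 21. None of the 10 genes passed the test at this time, although 9 of 10 had a log2 fold change above 0. The median log2 fold change of the 10 genes was 0.22, against 0.02 over all genes tested, of which 54.6% were above 0. A gene was called where edgeR's quasi-likelihood test gave a Benjamini-Hochberg adjusted p under 0.05, and 0 of 10 were, where 0.574% of all genes were. Mx1 alone had an unadjusted p under 0.05, as did 10.7% of all genes. DESeq2 also called 0 of the 10.

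Mx1 had the largest difference. It was 10.4, 10.4, 18.6, 22.2 and 16.4 CPM in dual ICI mice 1 to 5 and 14.6, 10.5, 8.22, 9.26 and 7.24 CPM in untreated mice 1 to 5. Dual ICI mice 3, 4 and 5 exceeded every untreated mouse, while mice 1 and 2 lay among the untreated mice, so the groups overlapped. Its log2 fold change was 0.66 ± 0.26 (SE, edgeR adjusted p = 0.370), with an unadjusted p of 0.0264. Ifit1 was 9.96, 10.0, 21.7, 25.2 and 14.5 CPM in dual ICI mice and 18.7, 17.6, 10.3, 15.5 and 9.98 CPM in untreated mice. Here too dual ICI mice 3 and 4 were the highest of the 10 and mice 1 and 2 were among the lowest, and the groups overlapped. Oasl2 was 53.2, 46.1, 94.7, 94.2 and 80.4 CPM in dual ICI and 62.2, 71.7, 48.3, 82.7 and 52.3 CPM in untreated mice, with the same mice 3 and 4 on top and mouse 2 at the bottom. The log2 fold changes of Ifit1 and Oasl2 were 0.19 and 0.23, within the spread between mice. Rsad2 and Cmpk2 were far less variable under dual ICI, at 12.2 ± 1.40 CPM (SD, n = 5) and 12.2 ± 1.03 CPM (SD, n = 5). Both overlapped with the untreated mice, at 9.83 ± 2.89 CPM (SD, n = 5) and 11.9 ± 3.37 CPM (SD, n = 5). The gene below 0 was Irf7 (-0.06), and for all 10 genes the groups overlapped.

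Without any treatment, the same genes were lower on day 35 than on day 21 for 8 of 10, and 3 fell with a call: Mx1, Rsad2 and Cmpk2. The share of 3 in 10 compares with 10.8% of all genes called in either direction and 4.58% called lower. The median log2 fold change was -0.55 over the 10 genes and 0.02 over all genes. Day 21 and day 35 libraries carry codes of different number ranges in their labels, which do not say what the codes mark. The day and whatever the codes mark cannot be told apart.

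Mx1 was 5.38, 2.60, 6.83, 4.97 and 3.99 CPM in untreated mice 1 to 5 of day 35 and 14.6, 10.5, 8.22, 9.26 and 7.24 CPM in those of day 21. The highest mouse of day 35 was below the lowest of day 21. The log2 fold change was -1.07 ± 0.26 (SE, edgeR adjusted p = 0.0287). Cmpk2 was 6.35, 7.20, 6.48, 6.52 and 5.49 CPM on day 35 and 14.6, 16.0, 7.89, 11.0 and 9.76 CPM on day 21, a log2 fold change of -0.89 ± 0.20 (SE, edgeR adjusted p = 0.0211). The day 35 mice lay close together and below every day 21 mouse. Rsad2 was 5.18, 4.31, 6.71, 5.81 and 4.43 CPM on day 35 and 13.2, 12.5, 7.35, 7.05 and 8.98 CPM on day 21, a log2 fold change of -0.90 ± 0.22 (SE, edgeR adjusted p = 0.0299). Its groups were also apart, though the gap was narrow, and groups apart with day 35 lower were found in 5.2% of all genes. Ifit1 had a log2 fold change of -0.52 ± 0.22 (SE, edgeR adjusted p = 0.144) with an unadjusted p of 0.0391, and Ifit3, Usp18, Mx2 and Oasl2 had -0.59, -0.47, -0.61 and -0.19. Isg15 (0.12) and Irf7 (0.13) had values above 0 and did not pass. The Isg15 level in untreated mice of day 35 ran from 5.38 to 12.4 CPM, with mouse 4 the highest of all 29 libraries.

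Each of the 3 calls was lost with any 1 of several libraries left out. All 3 were lost without untreated mouse 5 of day 35 (adjusted p = 0.0722 for Mx1, 0.0741 for Rsad2 and 0.0574 for Cmpk2, edgeR), and likewise without untreated mouse 1 or mouse 2 of day 21 (adjusted p from 0.0516 to 0.0745). Mx1 was also lost without mouse 4 of day 35 (0.0562), and Rsad2 without mouse 1 of day 35 (0.0578) or mouse 5 of day 21 (0.0609). No direction of these 3 genes turned with a library left out. Where a call was lost this way, the log2 fold change was between -1.09 (Mx1) and -0.75 (Cmpk2). With deposited totals and no scaling factor, Cmpk2 was still called and the calls of Mx1 (adjusted p = 0.0969, edgeR) and Rsad2 (0.0786) were lost.

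Neither antibody alone was followed by a call in the 10 genes on day 35, against the same 5 untreated mice. Under anti-PD1, 0 of 10 genes passed by edgeR or DESeq2 and 0 had an unadjusted p under 0.05, with 0.0% of all genes called and 1.31% at an unadjusted p under 0.05. The median log2 fold change was -0.13, and 7 of 10 were below 0. Rsad2, which stood highest at 0.56, rested on 1 mouse. It was 4.66, 4.52, 4.76, 5.27 and 19.9 CPM in anti-PD1 mice 1 to 5 and 5.18, 4.31, 6.71, 5.81 and 4.43 CPM in untreated mice 1 to 5. Mouse 5 was the highest of all 29 libraries for Rsad2, and the other 4 anti-PD1 mice lay within the untreated range. Ifit3 was 10.00, 6.38, 9.16, 10.9 and 34.9 CPM and Cmpk2 6.04, 4.34, 4.82, 7.13 and 16.1 CPM in the anti-PD1 mice, with mouse 5 again far above the rest. For Mx1 and Irf7 the same mouse was within the range of the other anti-PD1 mice. For Oasl2, at 52.5, 40.8, 44.6, 50.1 and 35.7 CPM, it was below them. Without mouse 5, all 10 log2 fold changes were below 0, at -0.15 for Rsad2, -0.52 for Ifit3 and -0.21 for Cmpk2, and 0 of 10 passed.

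Under anti-CTLA4, 0 of 10 genes passed by edgeR or DESeq2 and 0 had an unadjusted p under 0.05, where 0.0% of all genes were called and 0.811% had an unadjusted p below that limit. Of the 10 genes, 8 were below 0, with a median of -0.12 against -0.02 over all genes. The lowest was Isg15, at 5.04, 6.17, 4.95 and 5.35 CPM in anti-CTLA4 mice 1 to 4 and 5.38, 5.94, 7.86, 12.4 and 6.58 CPM in untreated mice, with a log2 fold change of -0.52 ± 0.25 (SE, edgeR adjusted p = 1.00). Anti-CTLA4 mice 1, 3 and 4 were below every untreated mouse, and mouse 2 lay within the untreated range, so the groups overlapped. Ifit1 had a log2 fold change of -0.40, and the others were between -0.23 (Ifit3) and 0.19 (Mx1).

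With both antibodies, the 2 uncured mice of day 35 had all 10 genes above the untreated mean, and 0 of 10 passed the edgeR test against the 5 untreated mice. The median log2 fold change was 0.48, against -0.01 over all genes, of which 48.8% were above 0. In this comparison 0.0% of all genes were called, and 4.87% had an unadjusted p under 0.05. Of the 10 genes, 4 had an unadjusted p under 0.05 (Mx1, Rsad2, Cmpk2 and Usp18), and DESeq2 called 17 genes, 0 of them among the 10. Mx1 was 11.6 and 13.6 CPM in uncured mice 1 and 5 and 5.38, 2.60, 6.83, 4.97 and 3.99 CPM in the untreated mice. Both uncured mice were well above the highest untreated mouse, with a log2 fold change of 1.39 ± 0.32 (SE, edgeR adjusted p = 0.735). Usp18 was 9.89 and 12.4 CPM in the uncured and 4.95, 3.38, 7.97, 9.23 and 5.84 CPM in the untreated mice, a log2 fold change of 0.82 ± 0.35 (SE, edgeR adjusted p = 0.735). The lower uncured mouse was just above the highest untreated mouse. Mx2, Rsad2 and Cmpk2 were also apart, with log2 fold changes of 0.84, 0.68 and 0.57. Groups were apart in this direction for 5 of the 10 genes and for 9.22% of all genes. Oasl2 (64.3 and 71.9 CPM), Irf7 (49.3 and 51.6 CPM), Isg15, Ifit1 and Ifit3 overlapped with the untreated mice and had log2 fold changes between 0.29 (Oasl2) and 0.39 (Ifit3). T cell markers moved with these values, and the summed CPM of 9 of the 10 listed was 52.2 and 55.3 in the uncured and 18.7 to 32.3 in the untreated mice. NK cell markers (7.45 and 10.2 against 3.66 to 5.44 CPM) and gastric epithelium markers (3026 and 3520 against 930 to 2975 CPM) were also apart. Summed macrophage, neutrophil, B cell and fibroblast markers overlapped between these groups. The part of tissue content in the result was not tested.

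Against the same untreated mice, Cmpk2, Ifit3 and Rsad2 rose in the 3 cured mice and Oasl2 fell, the calls of the first 3 being lost without scaling factors. Thus 4 of 10 genes were called where 44.7% of all genes were (18.0% higher and 26.7% lower), a share close to that of all genes. Ifit3 was 31.8, 18.5 and 31.5 CPM in cured mice 2, 3 and 4 and 9.56, 10.2, 15.0, 19.8 and 10.0 CPM in the untreated mice, a log2 fold change of 1.10 ± 0.28 (SE, edgeR adjusted p = 0.0115). Cured mice 2 and 4 were above every untreated mouse and cured mouse 3 was below untreated mouse 4, so the groups overlapped. Cmpk2 was 12.8, 11.0 and 14.6 CPM in the cured and 6.35, 7.20, 6.48, 6.52 and 5.49 CPM in the untreated mice, a log2 fold change of 1.02 ± 0.17 (SE, edgeR adjusted p = 0.00158). Its groups were far apart, in a direction in which groups were apart for 20.3% of all genes. Rsad2 was 6.66, 7.41 and 11.4 CPM in the cured mice, overlapping with the untreated mice at its lower end, with a log2 fold change of 0.70 ± 0.24 (SE, edgeR adjusted p = 0.0366).

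Oasl2 went the other way. It was 36.3, 27.3 and 35.1 CPM in the cured and 62.5, 30.9, 67.9, 58.8 and 57.4 CPM in the untreated mice, a log2 fold change of -0.73 ± 0.23 (SE, edgeR adjusted p = 0.0297). Untreated mouse 2, with much muscle as given above, had a level like that of the cured mice, and the other 4 were higher than all of them. Irf7 was 26.5, 17.7 and 28.9 CPM in the cured and 32.3, 26.6, 40.8, 56.2 and 40.7 CPM in the untreated mice, a log2 fold change of -0.67 ± 0.25 (SE, edgeR adjusted p = 0.0523), just short of the threshold. Untreated mouse 2 was again within the cured range, and without it Irf7 was at -0.77 (adjusted p = 0.0151, edgeR). In that fit 5 of 10 genes were called, beside 9388 of all 15775 genes. Mx1, Mx2, Isg15, Ifit1 and Usp18 did not pass, with log2 fold changes from -0.32 (Isg15) to 0.41 (Usp18).

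Of these calls, Cmpk2 held with every library left out in turn. Ifit3 was lost without cured mouse 4 (adjusted p = 0.0532, edgeR), and Rsad2 without cured mouse 3 or 4 or untreated mouse 1 or 5 (up to 0.211). Oasl2 was lost without any of the 3 cured mice or without untreated mouse 1, 3, 4 or 5 (0.0577 to 0.121). With deposited totals and no scaling factor, Cmpk2, Ifit3 and Rsad2 were at 0.45, 0.52 and 0.11 and were no longer called, while the median of all genes moved by -0.58 to -0.64. Relative to the median of all genes, Cmpk2 and Ifit3 differed by 1.07 and 1.15 with TMM and by 1.09 and 1.16 without. Leaving out the factors shifts all genes nearly alike, so these distances could hardly differ and do not tell whether the rise holds. With all 5 dual ICI mice of day 35 pooled as 1 group, against the same untreated mice, 0 of 10 genes passed by edgeR (0.0% of all genes), 4 had an unadjusted p under 0.05 (6.87% of all genes), and DESeq2 called Cmpk2.

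On the TMM scale, the difference between outcomes split the 10 genes by direction. In uncured against cured mice, Mx1, Oasl2 and Irf7 were higher and Ifit3 and Cmpk2 lower with TMM scaling, while without scaling factors all 10 genes were above 0 and 8 were called. The 8 calls without scaling factors stand beside 12441 of 15796 genes called, 10127 of them higher. The 5 of 10 calls with TMM stand beside 70.0% of all genes called, 36.9% higher and 33.1% lower, so the 10 genes were called no more often there than genes at large. Mx1 was 11.6 and 13.6 CPM in the 2 uncured and 5.63, 4.73 and 5.91 CPM in the 3 cured mice, a log2 fold change of 1.19 ± 0.18 (SE, edgeR adjusted p = 0.000410). Oasl2 was 64.3 and 71.9 CPM against 36.3, 27.3 and 35.1 CPM, a log2 fold change of 1.02 ± 0.13 (SE, edgeR adjusted p = 0.000133). Irf7 was 49.3 and 51.6 CPM against 26.5, 17.7 and 28.9 CPM, a log2 fold change of 1.03 ± 0.18 (SE, edgeR adjusted p = 0.000905). In all of these the lower uncured mouse was well above the highest cured mouse, and no library left out in turn ended the call. Cmpk2 was 9.85 and 9.30 CPM against 12.8, 11.0 and 14.6 CPM, with both uncured mice lower and a log2 fold change of -0.45 ± 0.17 (SE, edgeR adjusted p = 0.0420). Ifit3 was 15.1 and 18.9 CPM against 31.8, 18.5 and 31.5 CPM, a log2 fold change of -0.71 ± 0.23 (SE, edgeR adjusted p = 0.0231). Cured mouse 3 lay between the uncured mice for Ifit3, so these groups overlapped, while those of Cmpk2 did not.

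Rsad2 had a log2 fold change of -0.02 ± 0.26 (SE, edgeR adjusted p = 0.953), and Isg15, Mx2, Usp18 and Ifit1 had log2 fold changes of 0.65, 0.51, 0.41 and 0.24 that did not pass. Groups were apart with uncured mice higher for 6 of the 10 genes (43.7% of all genes) and lower for 1 (37.4% of all genes). The call of Cmpk2 was lost without uncured mouse 1 or 5 or cured mouse 2 or 4 (adjusted p from 0.0590 to 0.148, edgeR). That of Ifit3 was lost without uncured mouse 1 or cured mouse 2 or 4 (0.0636 to 0.140). With deposited totals and no scaling factor, the median of all genes was at 0.84, a shift of 0.78, and Ifit3 and Cmpk2 were at 0.08 and 0.34, with no call. Relative to that median, they were at -0.76 and -0.50 with and without the factors. The factors shift all genes nearly alike, so these distances could hardly differ and do not tell which direction holds. TMM factors were 0.698 to 0.730 in the cured libraries and up to 1.22 in the uncured. Beside these values, skeletal muscle genes took 6.30% and 8.80% of the uncured libraries and over 25% of the cured ones, and summed macrophage markers (12 of 12) were 2172 and 2489 CPM in the uncured and 1280 to 1389 CPM in the cured mice. The part of muscle, epithelium and macrophage content in the result was not tested.

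**Figure D2:**
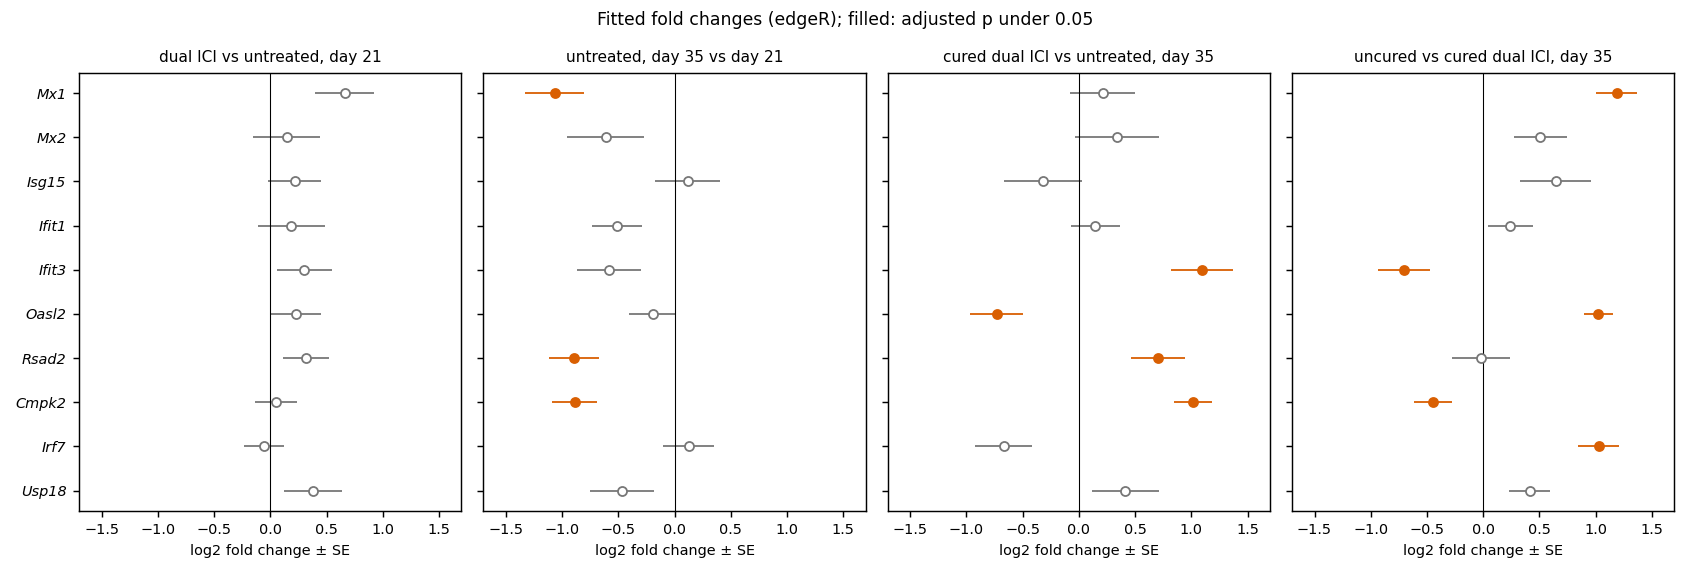
Log2 fold change ± SE of the 10 genes (y axis) in 4 comparisons, with filled points for an edgeR adjusted p under 0.05. None is filled for dual ICI on day 21, and in uncured against cured mice Mx1, Oasl2 and Irf7 are filled above 0 and Ifit3 and Cmpk2 below 0, the latter 2 being above 0 and not called without scaling factors.

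Relative levels of 2 genes can be read within single libraries, without any scaling, as a ratio of their counts. Such a ratio does not give the direction of either gene, so it does not tell whether the split by direction holds. The 3 pairs computed were chosen after the values were seen, and their ratios are a description. Ifit3 over Oasl2 was 0.677 to 0.897 in the 3 cured mice and 0.975 in anti-PD1 mouse 5, and 0.146 to 0.438 in the other 25 libraries. Cmpk2 over Mx1 was 2.27 to 2.48 in the cured mice, 2.77 in untreated mouse 2 of day 35 and 3.12 in anti-PD1 mouse 5, and 0.498 to 1.79 in the other 24 libraries. The 5 libraries with the highest Cmpk2 over Mx1 were those with a muscle share of 23.4% and above. Just below that share, dual ICI mouse 1 of day 21 (22.6% muscle) had a ratio of 1.12. Dual ICI mouse 2 of day 21 (19.6% muscle) had 1.14, so the ratio did not follow the muscle share throughout. Muscle's part in the ratios was not tested. The third ratio, Rsad2 over Irf7, did not set the cured mice apart, at 0.252 to 0.419 against 0.332 to 0.373 in dual ICI mice of day 21, 0.165 to 0.353 in untreated mice of day 21 and 0.612 in anti-PD1 mouse 5.

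**Figure D3:**
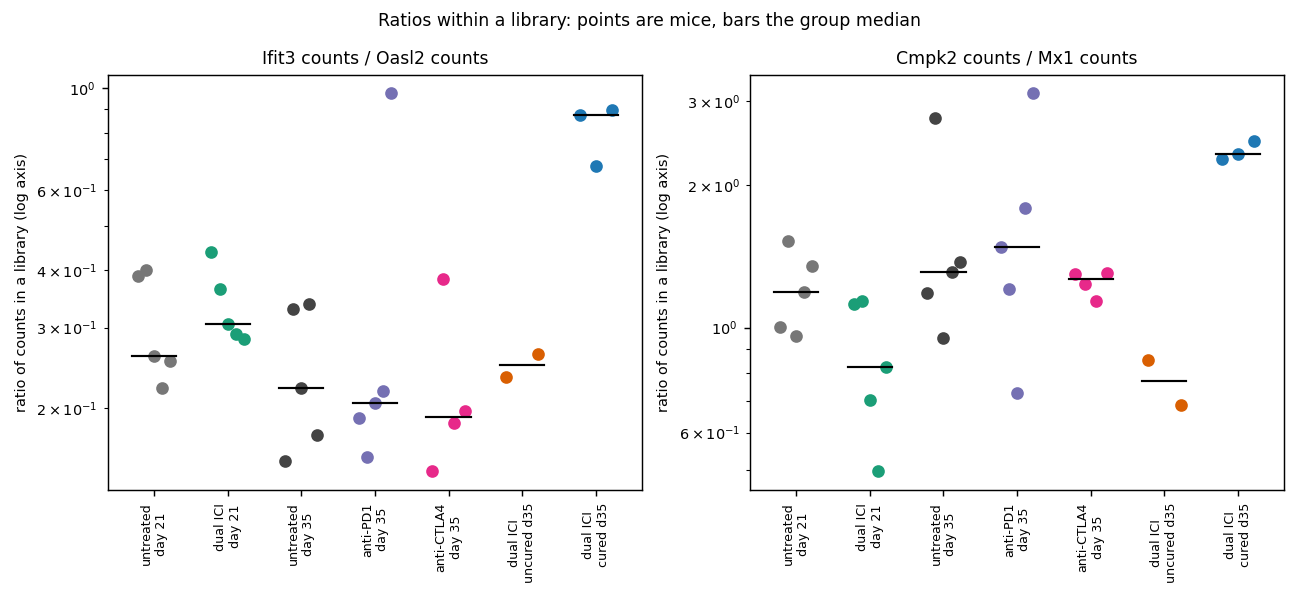
Ratio of the counts of Ifit3 to Oasl2 and of Cmpk2 to Mx1 (log axis) in each library by group, with bars for the median. The 3 cured mice and anti-PD1 mouse 5 stand highest for Ifit3 over Oasl2, at 0.677 to 0.975, above the other 25 libraries.

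Uncured mice of day 35 were also set beside the dual ICI mice of day 21. By the study's schedule, the mice of day 35 received later antibody doses that those of day 21 did not. The uncured mice were picked by outcome, the mice of day 21 were not, and the library codes differed in number range. Day, dosing, outcome and whatever the codes mark thus cannot be told apart in this comparison. By edgeR, 0 of 10 genes passed, where 5.31% of all genes did, and 2 had an unadjusted p under 0.05 (28.8% of all genes). Irf7 was 49.3 and 51.6 CPM in the 2 uncured mice and 32.1, 29.4, 35.7, 35.6 and 39.7 CPM on day 21, a log2 fold change of 0.53 ± 0.16 (SE, edgeR adjusted p = 0.0712). Both uncured mice were above every day 21 mouse. DESeq2 called Irf7 (adjusted p = 0.0187), and so did edgeR without dual ICI mouse 4 of day 21 (0.0356). Rsad2 (-0.53) and Cmpk2 (-0.37) were apart in the other direction, which made 3 of 10 genes apart against 36.9% of all genes. The test of whether dual ICI differed from no treatment more on day 35 (uncured mice) than on day 21 called 0 of 10 genes by edgeR and by DESeq2, where 0.0% of all genes were called by edgeR. None of the 10 and 6.35% of all genes had an unadjusted p under 0.05. All 10 differences of log2 fold changes were above 0 (46.5% of all genes), from 0.07 for Oasl2 to 0.74 for Mx1 (SE 0.43, adjusted p = 0.707). Dosing and the choice by outcome enter these differences too.

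The rest of the pathway was followed in lists of ligands, receptors and their kinases, sensors, further targets and interferon gamma responders. The ligands were barely counted. Of 14 interferon genes other than Ifng, 8 had 0 counts in all 29 libraries and the highest count in any library was 5, in Ifnz and Ifne. Ifnb1 had counts in 3 libraries, at most 2, so no difference in these ligands was detectable at this depth. Ifng, the type II interferon made by T and NK cells, was 1.21 ± 0.561 CPM (SD, n = 5, 20 to 81 counts) in dual ICI mice of day 21 and 0.263 ± 0.144 CPM (SD, n = 5, 2 to 12 counts) in untreated mice. Its log2 fold change was 2.20 (edgeR adjusted p = 0.0539). The cured libraries held 0 or 1 count of it.

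Among 12 receptor and JAK-STAT genes, 3 fell between day 21 and day 35 in untreated mice, among them Jak1 at -0.54 (adjusted p = 0.0336) and Stat2 at -0.53 (adjusted p = 0.0364) by edgeR, beside 4.58% of all genes called lower. Without scaling factors 0 of the 12 were called lower. In cured against untreated mice 1 was higher (Jak1, 0.51, and -0.07 without scaling factors) and 5 were lower, among them Ifngr1 (-1.16), Il10rb (-0.88) and the lambda receptor gene Ifnlr1 (-3.52). Without scaling factors 0 were higher and 8 lower, beside 1187 and 7386 of 15816 genes. With TMM 18.0% of all genes were called higher and 26.7% lower in this comparison. In uncured against cured mice, where 36.9% of all genes were called higher and 33.1% lower with TMM, 10 were higher and 1 lower (Jak1, -0.49, and 0.30 without scaling factors). Ifnar1 and Ifnar2, both chains of the type I receptor, differed by 1.04 and 0.96. Among 14 sensor, adaptor and IRF genes, Irf8, a factor of myeloid and dendritic cells, rose with dual ICI on day 21 at 0.99 (adjusted p = 0.0322), and Tlr7, an RNA sensor, fell in untreated mice by day 35 at -1.05 (adjusted p = 0.0454). Each was 1 of 14, beside 0.574% of all genes called on day 21 and 4.58% called lower by day 35. Both calls were lost without scaling factors, at adjusted p = 0.178 for Irf8 and 0.132 for Tlr7 by edgeR. In uncured against cured mice 11 were higher, led by Tmem173 (STING, 2.08), Ikbke (1.91) and Irf8 (1.87), and 1 was lower, the adaptor gene Mavs (-1.28). In cured against untreated mice 7 were lower and 1 higher, and without scaling factors 10 were lower and 1 higher. The shares of all genes given above for this comparison stand beside these counts.

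Of 40 other interferon-stimulated genes, 0 passed for dual ICI on day 21, with 33 above 0 and a median of 0.20, close to the 0.22 of the 10 genes. Between the days in untreated mice 7 of the 40 were lower and 0 higher, with Trim30a at -0.83 (adjusted p = 0.00968), Slfn5 at -0.86 (adjusted p = 0.0135) and Slfn8 at -0.88 (adjusted p = 0.0207). Without scaling factors 2 of the 40 were called lower, beside 511 of 15604 genes, and with TMM 4.58% of all genes were. For uncured against untreated mice 0 of 40 passed, with 35 above 0 and a median of 0.40. In cured against untreated mice 3 were higher and 14 lower, with a median of -0.48, beside 18.0% of all genes called higher and 26.7% lower. Without scaling factors 1 was higher and 26 were lower, beside 1187 and 7386 of 15816 genes. One of the 3 was Ifit3b, at 1.46 (adjusted p = 0.00186), the close copy of Ifit3, whereas Isg20 (-1.74) and Ifitm3 (-1.15) were lower. In uncured against cured mice, with 36.9% of all genes called higher, 31 of 40 were higher and 3 lower, with a median of 1.05 against 0.46 in the 10 genes and 0.05 in all genes. Without scaling factors 37 were higher and 1 lower, beside 10127 and 2314 of 15796 genes. Lgals3bp at 2.08 (adjusted p = 7.23e-07), Samd9l at 1.83 (adjusted p = 1.69e-06) and Adar at 1.47 (adjusted p = 2.01e-06) had the smallest p on the TMM scale. Ifit3b was lower (-1.27, and -0.48 without scaling factors), like Ifit3 on the TMM scale.

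The 15 interferon gamma responders, which include the class II MHC genes and the GBP and IRG GTPases, were all above 0 with dual ICI on day 21, with a median of 1.06, and 4 rose on the TMM scale, beside 0.574% of all genes called. Without scaling factors all 15 were still above 0 and 1 was called, H2-Ab1 (adjusted p = 0.0466, edgeR), beside 15 of all 15503 genes. H2-Aa at 1.07 (adjusted p = 0.0120), H2-Ab1 at 1.06 (adjusted p = 0.0151) and Igtp at 1.35 (adjusted p = 0.0319) had the smallest p by edgeR with TMM. In untreated mice 2 of the 15 were lower on day 35, namely Irgm2 (-0.67) and Ciita (-0.70), beside 4.58% of all genes called lower. Without scaling factors 0 of the 15 were called. In cured against untreated mice 1 was higher and 7 lower, among them the chemokine genes Cxcl9 (-3.60) and Cxcl10 (-3.61), beside 18.0% of all genes called higher and 26.7% lower. Without scaling factors 0 were higher and 10 lower, beside 1187 and 7386 of 15816 genes. In uncured against cured mice 14 of 15 were higher, where 36.9% of all genes were, with a median of 1.28, among them Cxcl10 (4.23), Ciita (1.94) and Cd74 (1.47). On day 21, summed T cell markers were 47.1 to 88.9 CPM with dual ICI and 15.5 to 30.9 CPM without, NK cell markers (Klra8 at 0) were 5.78 to 15.6 and 5.15 to 7.02 CPM, and macrophage markers were 2305 to 3954 and 1881 to 2349 CPM. Plasmacytoid dendritic cell markers, known for cells that make much type I interferon, summed to 1.63 to 5.56 CPM over all 29 libraries without Cox6a2, which muscle also expresses. The part of these cells in the results was not tested.

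**Figure D4:**
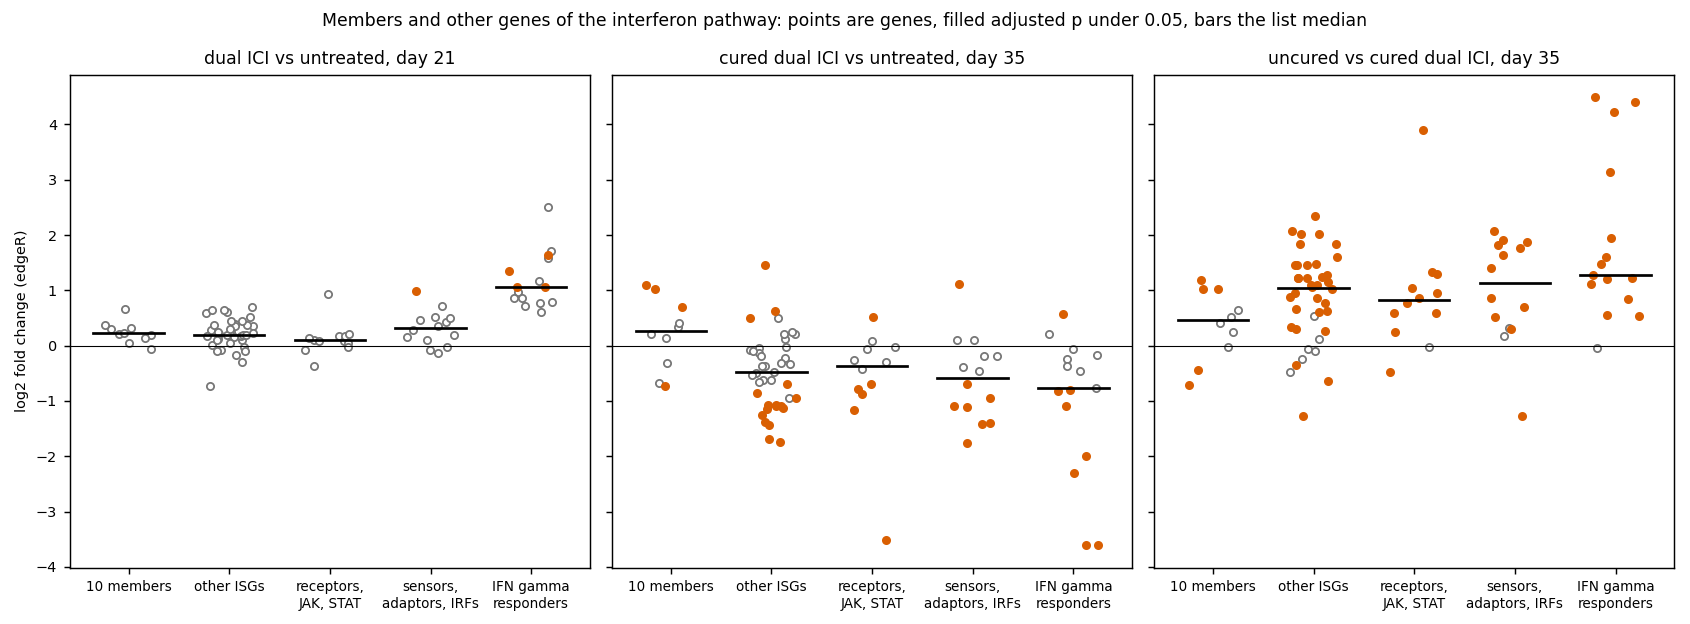
Log2 fold change of each gene (y axis) of the 10 interferon-stimulated genes and of 4 pathway lists in 3 comparisons, with bars for the median. On day 21 the interferon gamma responders have a median of 1.06 against 0.22 for the 10 genes, and in uncured against cured mice 31 of the 40 other interferon-stimulated genes are called above 0 on the TMM scale while Ifit3, Ifit3b, Cmpk2, Jak1 and Mavs are among the genes called below it. Without scaling factors Ifit3b (-0.48) and Mavs (-0.50) stay below 0, and Ifit3, Cmpk2 and Jak1 are above it.

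Across the 29 libraries the 10 genes moved together in part. Over the 45 pairs of genes, the median Pearson r of log2 CPM (prior count 2) was 0.612, from -0.021 (Cmpk2 with Irf7) to 0.907 (Ifit3 with Cmpk2). Ifit1 with Usp18 (0.883) and Rsad2 with Cmpk2 (0.880) followed, the latter being the head-to-head neighbours. These r are descriptions over libraries that share groups, tissue content and a scaling step. With group means subtracted, the median was 0.538. The 8 genes outside the 10 whose log2 CPM was most like the mean of the 10, of 14328 ranked, were Slfn8 (r = 0.884), Sp100 (0.863), Ifi44 (0.860), Trim30a (0.857), Gm4951 (0.857), Klrk1 (0.854), Ifit2 (0.848) and Stat2 (0.845). Of these, 5 are in the list of 40 other interferon-stimulated genes, and Stat2 is in the receptor and JAK-STAT list.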

How the data were processed

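RNA-seq libraries of 29 mice in 7 groups were analysed. The authors extracted total RNA, made libraries with an Illumina NEBNext kit, aligned reads to mm10 and deposited raw counts per gene symbol without normalization. The submitters' processing notes name STAR 2.7.0f and featureCounts 1.6.4, whereas the methods of the study name HTSeq as the counter, and the strand setting and annotation are not given in the sources used here. 0 columns belonged to no sample.

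Counts were tested with edgeR 4.0.16 in R 4.3.3 (TMM, filterByExpr, glmQLFit and glmQLFTest). P-values are two-sided and adjusted over all genes tested by the Benjamini-Hochberg method (threshold 0.05), with only the groups compared in each fit. Comparisons against the untreated mice of day 35 share those 5 mice. Each library was 1 mouse, so the SD holds counting error with differences between mice. Total counts were 25989217 to 31219650, and a gene with 3 counts or fewer was taken as not measurable. CPM used TMM-scaled library sizes over all 29 libraries. Alternatives were DESeq2 1.42.0, other scalings, no filter on low counts, a joint fit of the 29 libraries, a block for the replicate number and leaving out each library in turn. Fitting without scaling factors was added after seeing the data. The code was tested on simulated counts. Tables and figures were made with pandas 2.3.3, numpy 2.4.6 and matplotlib 3.10.9.

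The members and all lists were chosen with earlier results of these data known. Genes named outside the 10 were, per list and comparison, the 3 with the smallest adjusted p among those called, else the 3 with the highest mean CPM, and the 8 most like the mean of the 10 with a mean CPM of at least 1. Ifnar1, Ifnar2, Ifit3b, Jak1 and a few other list genes named a second time were chosen after their values were seen. The values of 1 list gene are not reported here.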

Additional observations from a re-analysis of the deposited data

Results flagged for a closer look

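Of the 50 checks of 1 gene in 1 group of 4 or 5 mice, 6 found a mouse far from the others, where chance gives about 1 in 20 in independent checks. The 50 were not independent, because the genes share mice and moved together in part, and most of the 6 fell on 1 mouse. No excess over that rate is therefore read from them. In anti-PD1 mice, mouse 5 stood above the other 4 for Ifit3 (34.85 CPM), Rsad2 (19.93 CPM), Cmpk2 (16.11 CPM) and Usp18 (9.087 CPM). This library also had 39.2 CPM of gastric epithelium markers and 24.9% of its counts in skeletal muscle genes, and their part in these values was not tested. In untreated mice of day 35, mouse 2 stood below the other 4 for Oasl2 (30.94 CPM), in a library with 23.4% of its counts in skeletal muscle genes. In anti-CTLA4 mice, mouse 1 stood above the other 3 for Usp18 (7.357 CPM).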

How the results depend on the processing

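Of 930 values of the 10 genes with 1 library left out, 847 kept their direction and side of the threshold, 31 lost a call, 3 gained one, and 49 that were not called changed sign. Under other settings this held for 742 of 790, with 16 lost, 11 gained and 18 uncalled changes of sign. The 3 values that changed sign with a call came from deposited totals without a scaling factor in uncured against cured mice, which put Ifit3 at 0.0793, Cmpk2 at 0.337 and Rsad2 at 0.763. That setting moved the median of all genes by 0.78 there and by -0.58 in cured against untreated mice. It moved the share of calls that were higher from 52.7% to 81.4% and from 40.3% to 13.8%, on day 21 under dual ICI from 82.0% to 93.3%, and in uncured against day 21 dual ICI mice from 57.4% to 69.7%. It gave calls in 1 of the 10 genes between the days (3 with TMM), 2 in cured against untreated (4) and 8 in uncured against cured mice (5), and 15 called genes in all for dual ICI on day 21 (89). Of all genes it called 1289 of 15604 between the days, 8573 of 15816 in cured against untreated and 12441 of 15796 in uncured against cured mice.

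DESeq2 called 501 genes for dual ICI on day 21, 3150 between the days (1687 by edgeR), 46 for all dual ICI mice of day 35 with 1 of the 10 among them, 17 for uncured against untreated, 3065 for uncured against day 21 dual ICI mice (857) with 1 of the 10 among them, and 1 for the difference of the dual ICI effects. A single fit of all libraries gave 237 genes for uncured against day 21 dual ICI mice. In uncured against cured mice it called 3 of the 10, beside 9576 of all 16700 genes. The replicate block gave 209 genes for dual ICI on day 21, 4016 for cured against untreated mice (7067) with 1 of the 10 (4), and 3192 for uncured against day 21 dual ICI mice. The numbers do not mark shared animals, and same-numbered libraries were not read as pairs. Of 31 same-numbered pairs, 11 had a correlation of deviations over 0.1 (-0.733 to 0.725). The 31 hold the pairs of dual ICI with untreated mice of day 35 both pooled and split by outcome, so some pairs are counted again. Uncured and cured mice share no number, so no block could be fitted there.

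With 1 library left out in turn, the genes called were 6 (without untreated mouse 5) to 119 (without dual ICI mouse 1) on day 21. They were 654 (without day 21 mouse 5) to 4915 (without day 35 mouse 2) between the days and 4491 (without cured mouse 3) to 9388 (without untreated mouse 2) for cured against untreated mice. For uncured against day 21 dual ICI mice they were 0 (without uncured mouse 1) to 4006 (without day 21 mouse 4). Of the 10 genes, 0 to 3, 1 to 5 and 0 to 1 were called in the latter 3. In uncured against cured mice 3 to 5 were, beside 9668 to 10883 of all genes. Of the 8 genes most like the 10, 5 remained with group means subtracted. The causes were not tested. Mx2, at 26 counts in its lowest library, had the fewest counts of the 10, and the interferon ligands were too few in counts to compare.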

Other observations

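With the group means subtracted, so that only differences between mice of 1 group were left, the genes most like the mean of the 10 were Rtp4, a receptor transporter gene (r = 0.913), Zbp1, which encodes a nucleic acid sensor (0.889), and Stat2 (0.821), followed by Slfn8 (0.798), Gm4951 (0.766), the GTPase gene Gbp3 (0.757), Ifi44 (0.754) and Ifit2 (0.744). Rtp4 and Zbp1 were not among the 8 genes found over the plain values. These are descriptions over 29 libraries and were not tested.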
